A study of Mus musculus with 24 samples.

Results

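The 10 genes described here encode the core of the circadian clock and its best known output: the activators Arntl (also called Bmal1) and Clock, the period genes Per1, Per2 and Per3, the cryptochromes Cry1 and Cry2, the nuclear receptors Nr1d1 and Nr1d2 (REV-ERB alpha and beta) and the D-box binding factor Dbp. They were chosen by name, and each was measured by 1 probe of 19938 genes that had a probe with a single gene symbol. Hippocampal RNA of male mice, 8 to 9 weeks old and of mixed C57BL/6J-129sv descent, was read on 24 arrays, 6 in each of 4 groups. The groups crossed genotype with state: wild type (WT, FoxO6 +/+) or FoxO6 null mutant (FoxO6 -/-, a mouse without this forkhead transcription factor), each taken either at baseline or after learning. Basal mice had been kept singly for 3 days or more. Learning mice had been handled daily, met the empty arena for 10 min 24 h before, then spent 10 min with a pair of identical objects and were killed after 60 min. The allele of the mutant is given only as null, and the arrays are labelled as biological replicates with no animal named, so p values measure the spread between these arrays. The labels give no time of day of collection, and single housing, handling, the arena, the objects and the time of collection cannot be told apart in the state comparison.

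In the clock, Arntl and Clock proteins form a dimer that binds E-boxes and drives the Per, Cry, Nr1d1, Nr1d2 and Dbp genes. Per and Cry proteins return to the nucleus and inhibit that dimer, while the Nr1d1 and Nr1d2 proteins repress Arntl through response elements shared with the ROR activators. Dbp carries the rhythm to output genes by binding D-boxes. The hippocampus runs such a clock of its own, and Per1 is also known as a gene that neuronal activity, through cAMP response elements, and glucocorticoids can induce.

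The regulatory sequences of these genes near their RefSeq starts show which of the classical clock elements each promoter window holds. A window ran from 250 bases before to 50 bases after a start (RefSeq, GRCm38.p6), and 9 of the 10 genes had 13 windows. No window was available for Per2, so its promoter was not searched. Both strands were searched for the E-box CACGTG, its variant CACGTT, the cAMP response element TGACGTCA and its core TGACG, the D-box as TTATGTAA or TTACGTAA, the core site AGGTCA of ROR and REV-ERB receptors, and a glucocorticoid element made of AGAACA and TGTTCT with 3 bases between them. The core TGACG lies within TGACGTCA, so that a full element counts under both. A match is a description of the letters and does not show binding.

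The following stretches, all upstream of the start and read 5′ to 3′ on the gene's strand, are shown because they hold most of the matches of the genes whose RNA is compared below. Capitals mark the matched letters on either strand.
Per1 first start (chr11:69098769-69098828, + strand): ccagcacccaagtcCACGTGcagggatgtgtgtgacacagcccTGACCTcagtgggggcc
Per1 second start (chr11:69099992-69100051, + strand): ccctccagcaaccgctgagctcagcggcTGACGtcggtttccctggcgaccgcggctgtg
Per3 (chr4:151044806-151044880, − strand): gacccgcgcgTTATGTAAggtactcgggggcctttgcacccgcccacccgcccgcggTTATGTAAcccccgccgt
Cry1 (chr10:85185055-85185154, − strand): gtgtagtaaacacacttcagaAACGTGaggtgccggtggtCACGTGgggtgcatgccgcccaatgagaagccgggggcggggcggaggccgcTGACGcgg
Cry2 (chr2:92434220-92434289, − strand): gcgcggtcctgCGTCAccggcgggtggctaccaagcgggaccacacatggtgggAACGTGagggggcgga
Nr1d1 (chr11:98775378-98775457, − strand): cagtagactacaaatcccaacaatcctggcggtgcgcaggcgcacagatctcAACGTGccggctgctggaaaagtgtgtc
Nr1d2 (chr14:18239157-18239216, − strand): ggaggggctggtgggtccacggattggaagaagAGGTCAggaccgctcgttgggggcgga
Clock start 3 (chr5:76303603-76303642, − strand): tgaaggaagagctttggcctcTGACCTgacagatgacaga

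The E-box CACGTG stood 166 bases before the first Per1 start and 60 bases before the Cry1 start, and 7.15% of all 32851 windows hold one. Its variant CACGTT stood, on the opposite strand, 79 bases before the start of Cry1, 166 before that of Cry2 and 28 before that of Nr1d1 (4.68% of all windows). Per3 alone of the genes searched had the D-box TTATGTAA, at 205 and 158 bases before its start (0.938% of all windows). The receptor site AGGTCA was found 77 bases before the Nr1d2 start, 137 before the first Per1 start and 119 before Clock start 3, as well as 32 bases after the second Arntl start (16.3% of all windows). The core TGACG lay 246 bases before the first and 132 before the second Per1 start, 8 before that of Cry1 and 209 before that of Cry2 (20.8% of all windows). The Dbp window, the first Arntl window and 2 Clock windows held no match, 4 of 13 in all. The full cAMP response element (1.79% of all windows), the D-box TTACGTAA (0.119%) and the glucocorticoid element (0.00913%) matched in none of the 13.

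As a description of the tissue, the log2 values over all arrays ran from 11.68 to 12.10 for Camk2a and from 11.15 to 12.15 for Slc17a7, both genes of excitatory neurons, and from 8.49 to 9.40 for Prox1, a granule cell factor. Those of the suprachiasmatic genes ran from 6.16 to 7.52 for Vip, 6.14 to 7.03 for Avp, 4.96 to 5.57 for Nms and 5.15 to 5.69 for Prok2, and those of the choroid plexus gene Ttr from 8.46 to 12.11. Each range belongs to its own probe, and the array gives no level at which a gene is absent. Arrays of a group correlated at 0.991 to 0.997 across genes. Foxo6 itself ranged from 6.78 to 7.30 on a log2 scale in WT basal and 6.18 to 6.59 in mutant basal arrays, and from 6.62 to 7.04 in WT and 5.98 to 6.38 in mutant learning arrays, so that no mutant array reached the WT range of its state. Where its probe lies relative to the deleted part is not known here. All values below are log2 RMA values. A level belongs to its own probe and is not set against another gene, and fewer expressing cells cannot be told apart from less RNA per cell. Calls below rest on limma with p adjusted over all genes and a threshold of 0.05, and intervals are 95% intervals.

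**Figure D1:**
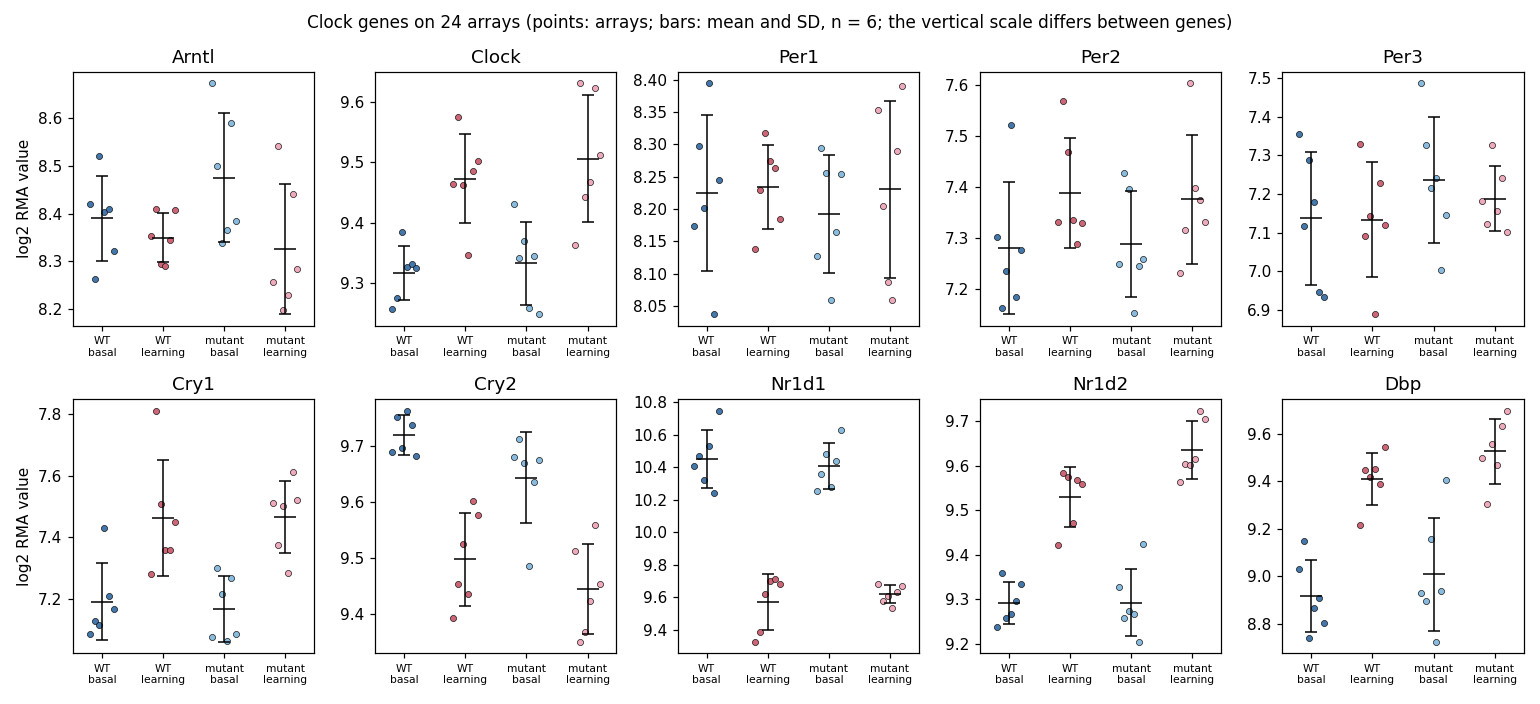
Log2 RMA value (vertical axis, its scale differing between panels) of each clock gene on 6 arrays per group (points) with mean and SD (bars). Nr1d1 lies at 10.24 or above on all basal arrays and at 9.72 or below on all learning arrays, whereas the Per1 groups overlap and all lie between 8.04 and 8.39.

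After learning the nuclear receptor genes moved apart: Nr1d1 RNA fell to near 0.543-fold in WT while Nr1d2 rose. Nr1d1 encodes a heme-sensing repressor of Arntl. On the WT basal arrays it ran from 10.24 through a median of 10.44 to 10.75, and on the WT learning arrays from 9.33 through 9.65 to 9.72. The ranges were separated by over 0.5 log2 units, with every learning array below every basal array. The difference was −0.88 (SE 0.0735, interval −1.03 to −0.73, adjusted p = 5.16e-11). Among all 19938 genes it was the 9th lowest difference, and 0.271% of genes had a larger one in either direction. Thra, the thyroid hormone receptor gene that overlaps Nr1d1 on the other strand, also fell, with differences of −0.33 in WT and −0.30 in the mutant (adjusted p = 1.42e-08 and 5.94e-08).

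In the mutant, Nr1d1 ran from 10.25 through 10.40 to 10.63 at basal and from 9.54 through 9.62 to 9.68 after learning, again without overlap. The mutant difference was −0.79 (SE 0.0735, interval −0.94 to −0.64, adjusted p = 4.28e-10), which is 0.579-fold, and ranked 37th from the lowest. The learning arrays of the mutant lay close together, with an SD of 0.0561 against 0.170 in WT.

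Nr1d2, the paralog with the same DNA-binding preference, took the opposite direction. It ran from 9.24 through 9.28 to 9.36 in WT basal and from 9.42 through 9.56 to 9.58 in WT learning arrays, a rise of 0.24 (SE 0.0408, adjusted p = 1.69e-05). In the mutant it ran from 9.20 through 9.27 to 9.42 and from 9.56 through 9.61 to 9.72, a rise of 0.34 (SE 0.0408, adjusted p = 4.52e-08). All learning arrays lay above all basal arrays in both genotypes. Taken in order of the group means, WT basal and mutant basal came first at 9.29 each and overlapped, then WT learning at 9.53 and mutant learning at 9.64, whose ranges also overlapped.

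Dbp, whose protein carries the clock signal to D-box genes, rose in both genotypes. Its WT values ran from 8.74 through 8.89 to 9.15 at basal and from 9.22 through 9.43 to 9.54 after learning. Each WT learning array was therefore above each WT basal array. The rise was 0.49 (SE 0.0843, interval 0.32 to 0.67, 1.41-fold, adjusted p = 1.57e-05), and 6.02% of genes differed by more. In the mutant the values ran from 8.73 through 8.93 to 9.40 and from 9.30 through 9.53 to 9.70, where mutant basal array 6 at 9.40 reached into the learning range. The mutant rise was 0.52 (SE 0.0843, 1.43-fold, adjusted p = 8.1e-06).

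The cryptochromes, the repressors that bind the Arntl and Clock dimer directly, also parted. Cry1 ran from 7.09 through 7.15 to 7.43 in WT basal and from 7.28 through 7.41 to 7.81 in WT learning arrays, which overlap because of WT basal array 4 at 7.43. It rose by 0.27 in WT (SE 0.0768, 1.21-fold, adjusted p = 0.00475). The mutant values ran from 7.06 through 7.15 to 7.30 and from 7.28 through 7.51 to 7.61, a rise of 0.30 (SE 0.0768, 1.23-fold, adjusted p = 0.00211).

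Cry2 fell. The WT basal arrays lay between 9.68 and 9.76 with a median of 9.72, and the WT learning arrays between 9.39 and 9.60 with a median of 9.49. No WT array of one state reached the range of the other, and the difference was −0.22 (SE 0.0439, 0.857-fold, adjusted p = 0.000108). In the mutant, Cry2 ran from 9.48 through 9.67 to 9.71 and from 9.35 through 9.44 to 9.56, a difference of −0.20 (SE 0.0439, 0.871-fold, adjusted p = 0.000415), with mutant basal array 4 at 9.48 inside the learning range.

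The Per genes, whose proteins inhibit the dimer together with the cryptochromes, were not called in either genotype. Per1 ran from 8.04 through 8.22 to 8.39 in WT basal and from 8.14 through 8.25 to 8.32 in WT learning arrays, so that the learning range lay inside the basal one. Its difference was 0.01 (interval −0.12 to 0.13, adjusted p = 0.918) in WT and 0.04 (−0.09 to 0.16, adjusted p = 0.667) in the mutant. Per2 differed by 0.11 in WT (interval −0.03 to 0.25, adjusted p = 0.218) and by 0.09 in the mutant (−0.05 to 0.23, adjusted p = 0.331). Per3 differed by −0.0031 (interval −0.17 to 0.16) and −0.05 (−0.21 to 0.12). Averaged over the genotypes, Per2 differed by 0.10 (adjusted p = 0.0899), which passed the threshold only without WT basal array 4 (0.12, adjusted p = 0.0275).

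Of the activator pair, Clock rose in both genotypes, while Arntl was not called in WT and passed the threshold narrowly in the mutant, a difference between genotypes that the interaction did not call. Clock ran from 9.26 through 9.33 to 9.39 in WT basal and from 9.35 through 9.48 to 9.57 in WT learning arrays. It was higher by 0.16 in WT (SE 0.0454, 1.11-fold, adjusted p = 0.0058) and by 0.17 in the mutant (SE 0.0454, 1.13-fold, adjusted p = 0.00247), where the values ran from 9.25 through 9.34 to 9.43 and from 9.36 through 9.49 to 9.63. The ranges of the states touched in both genotypes.

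Arntl ran from 8.26 through 8.41 to 8.52 in WT basal and from 8.29 through 8.35 to 8.41 in WT learning arrays, a difference of −0.04 (adjusted p = 0.635). In the mutant it ran from 8.34 through 8.44 to 8.67 and from 8.20 through 8.27 to 8.54, a difference of −0.15 at an adjusted p of 0.0496. That mutant call ended in 24 of 35 alternatives. Among them were mutant basal array 1, 2 or 5 or mutant learning array 1, 3, 4 or 6 left out (up to 0.159), and 10 of the 12 WT arrays left out, which act only through the shared spread and the adjustment (up to 0.0555). Averaged over genotypes the difference was −0.10 (adjusted p = 0.0632).

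**Figure D2:**
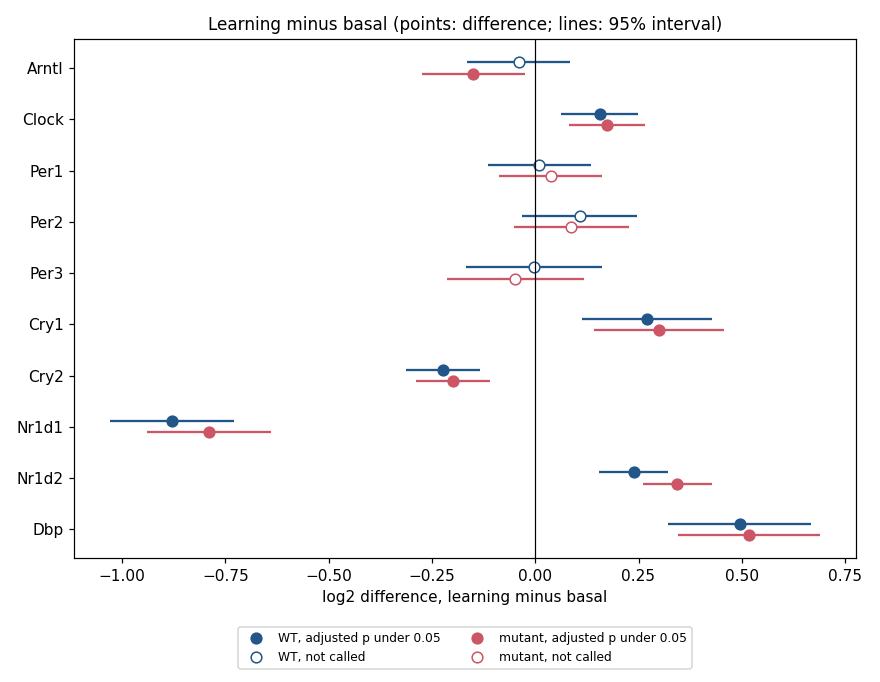
Log2 difference between learning and basal arrays (horizontal axis) for each clock gene, in WT (blue) and mutant (red), with 95% intervals as lines and filled points for called differences. The genotypes lie side by side for each gene, from −0.88 and −0.79 for Nr1d1 to 0.49 and 0.52 for Dbp.

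In counts, 4 of the 10 genes rose and 2 fell in WT after learning, beside a background of 25.1% of genes called higher and 18.2% called lower. In the mutant 4 rose and 3 fell, beside 22.6% and 18.7% of all genes. Averaged over genotypes 4 rose and 2 fell, beside 31.7% and 23.1%. With a background of this size the number of clock genes called is no result about the group, and the direction and size of single genes are what these values add. In WT, 24.2% of genes had a larger difference in either direction than Cry1, 29.4% than Nr1d2, 32.2% than Cry2 and 47.1% than Clock. In the mutant these shares were 20.1%, 15.6%, 35.3% and 41.0%, and 47.2% for Arntl. The median difference of the 10 genes was 0.06 in each genotype and that of all genes 0.03. In WT, 2 genes lay above (Nr1d2, Dbp) and 2 below (Nr1d1, Cry2) without overlap of the groups, as did 13.8% and 11.4% of all genes. In the mutant 1 lay above (Nr1d2) and 1 below (Nr1d1), beside 10.9% and 11.8%.

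Whether partners or paralogs moved by different amounts was tested within arrays, where any shift of a whole array drops out. A two-sided exact permutation test that goes through every way to label 6 of 12 arrays as learning was run for 6 pairs in each genotype, 12 tests in all. Nr1d1 moved against Nr1d2 by −1.12 in WT and −1.13 in the mutant. Cry1 moved against Cry2 by 0.49 and 0.50, and Arntl against Clock by −0.20 and −0.32. Each of these 6 exact permutation tests gave p = 0.00216, the smallest that the assignments allow (adjusted p = 0.00433), and in each the 6 learning arrays lay on one side of the 6 basal arrays. For Nr1d1 and Nr1d2 that outcome followed from their ranges, which moved in opposite directions without overlap in both genotypes. Whether the Arntl and Clock difference itself depends on genotype was not tested. The Per pairs were not called. Per1 against Per2 was −0.10 in WT (exact permutation p = 0.154) and −0.05 in the mutant (p = 0.652), Per2 against Per3 was 0.11 (p = 0.327) and 0.14 (p = 0.123), and Per1 against Per3 was 0.01 (p = 0.909) and 0.09 (p = 0.452).

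**Figure D3:**
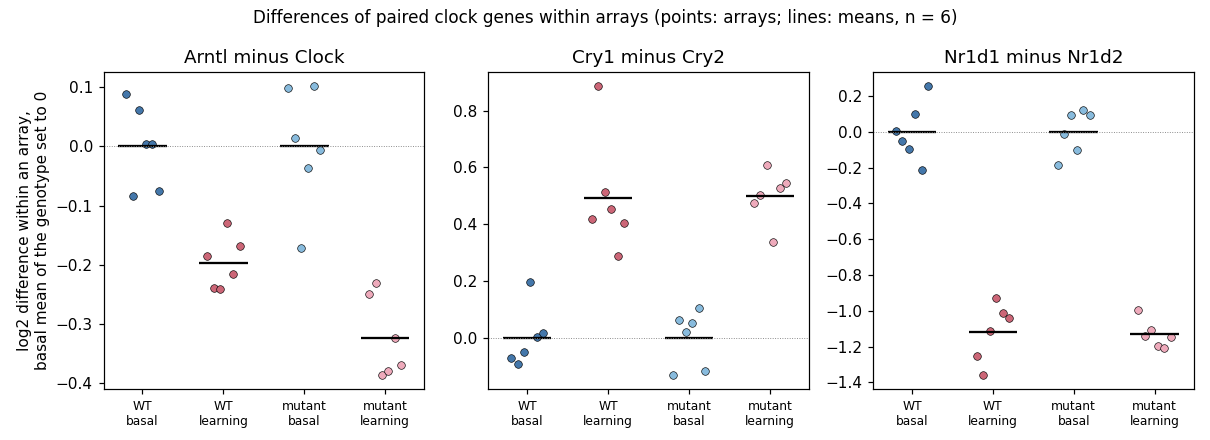
Within-array log2 difference of 3 gene pairs (vertical axis, scale differing between panels), with the basal mean of each genotype set to 0, for 6 arrays per group (points) and their means (lines). The Nr1d1 and Nr1d2 pair drops by −1.12 in WT and −1.13 in the mutant, the Cry pair rises by 0.49 and 0.50, and no learning array reaches the basal arrays of its genotype.

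No clock gene was called between mutant and WT. At basal, differences ran from −0.08 for Cry2 to 0.10 for Per3, 0 of 10 were called by limma (adjusted p = 0.9997 for each), and 0 had an unadjusted p under 0.05. Of all genes 0.100% were called in that comparison. After learning they ran from −0.05 for Cry2 to 0.12 for Dbp, with 0 called and 1 at an unadjusted p under 0.05, beside 0.0752% of all genes called. That gene was Nr1d2, at 9.64 ± 0.06 in the mutant and 9.53 ± 0.07 in WT (SD, n = 6), a difference of 0.11 with an unadjusted p of 0.0149 and an adjusted p of 0.559 in limma. Averaged over states 0 of 10 were called, beside 0.391% of all genes, and Cry2 had the smallest unadjusted p at 0.0448 (difference −0.07, adjusted p = 0.557 in limma). Per3, on the same chromosome as Foxo6, differed by 0.10 at basal and 0.05 after learning, and neither was called. The intervals of all 10 genes lay within −0.20 and 0.27 at basal and within −0.15 and 0.29 after learning.

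Whether the response to learning differed between genotypes was tested by the interaction, the mutant response minus the WT response. Limma called 0 of 10 clock genes and 0% of all genes, and 0 of the 10 had an unadjusted p under 0.05. The values ran from −0.11 for Arntl (interval −0.29 to 0.07) to 0.11 for Nr1d2 (−0.01 to 0.22). For Nr1d1 it was 0.09 (−0.12 to 0.30) and for Dbp 0.02 (−0.22 to 0.27), so a modest difference in response is within these intervals. The responses of the genotypes come from separate arrays.

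**Figure D4:**
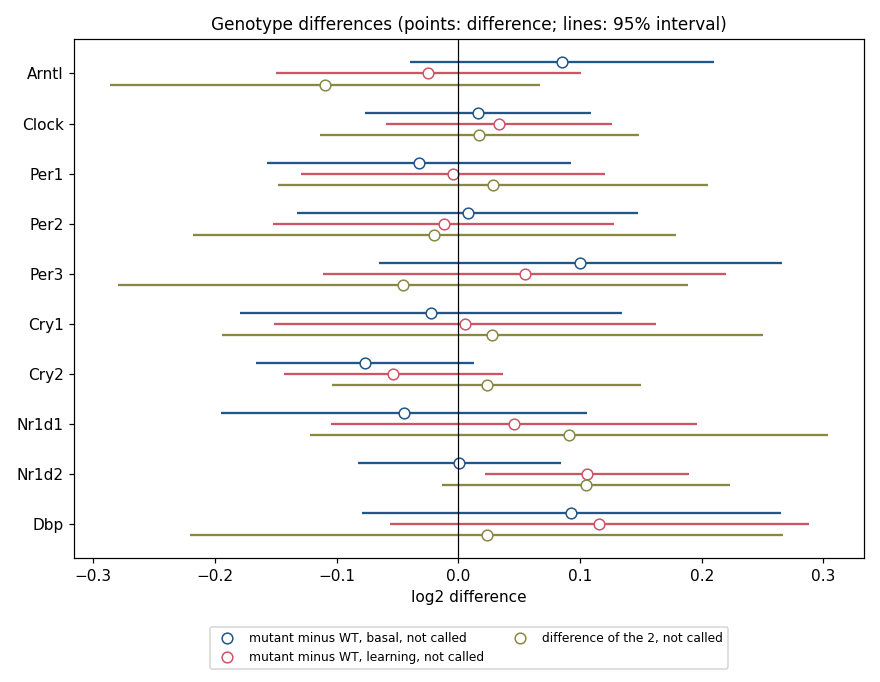
Log2 difference between mutant and WT (horizontal axis) at basal (blue) and after learning (red), and the difference of these 2 (olive), with 95% intervals as lines. All points are open, as none was called, and they lie between −0.11 and 0.12.

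Choroid plexus markers, 15 of 17 measured, are given because they differed between arrays. All 15 were higher in the mutant at basal, with 0 called (median 0.17), and their mean log2 level ranged from 5.88 to 6.83 in WT basal, 6.37 to 6.87 in mutant basal, 5.99 to 6.22 in WT learning and 5.97 to 6.80 in mutant learning arrays. The thyroxine carrier gene Ttr ran from 11.01 to 11.99 in mutant basal arrays. It stood at 8.80, 9.64 and 9.17 in WT basal arrays 4, 5 and 6 and at 11.65 or more in the rest of that group. All 15 markers were also higher in the mutant after learning, with 0 called (median 0.16). Between states, 2 of the 15 had a positive difference in each genotype (medians −0.20 in WT and −0.22 in the mutant). After learning 0 choroid plexus markers were called higher and 1 lower in WT, and 0 and 4 in the mutant. Averaged over genotypes 0 were called higher and 7 lower, beside 31.7% and 23.1% of all genes. Without WT basal arrays 4, 5 and 6 the WT calls of the clock genes were as before, 4 higher and 2 lower, with Nr1d1 at −0.83, Dbp at 0.44, Cry1 at 0.35 and Nr1d2 at 0.25, and with the marker mean as a covariate they were again 4 and 2. Markers of the hypothalamus and suprachiasmatic nucleus, 11 of 12 measured, had mean levels of 5.64 to 5.84, 5.69 to 5.87, 5.63 to 6.01 and 5.82 to 6.04 in WT basal, WT learning, mutant basal and mutant learning arrays, with 1 called higher and 0 lower in each genotype after learning. That gene was Vip in both genotypes, at 0.80 in WT and 0.86 in the mutant. The marker counts after learning stand beside 25.1% of all genes called higher and 18.2% lower in WT and 22.6% and 18.7% in the mutant. Of 10 hippocampal neuron markers 2 were called higher and 5 lower in WT and 1 and 5 in the mutant, and their mean level ran from 9.84 to 10.02, 9.67 to 9.86, 9.78 to 9.90 and 9.65 to 9.73 in the same order of groups. Of 8 endothelial and mural markers 1 was called higher and 3 lower in WT and 1 and 4 in the mutant. Between genotypes, 1 hippocampal neuron marker was called lower in the mutant at basal and 1 after learning, Fibcd1 in both (−0.34 and −0.35). Averaged over states 3 of the 10 were called lower, Fibcd1 (−0.34), C1ql2 (−0.29) and Prox1 (−0.20), and 0 higher. Of all genes 0.100%, 0.0752% and 0.391% were called in these comparisons. The choroid plexus, hypothalamus and endothelial lists had 0 called between genotypes. The part of these marker lists in the clock gene values was not tested.

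Other parts of the loop were read from a list of 27 clock partners and regulators, 23 of them measured. After learning 7 rose and 7 fell in WT, and 7 rose and 8 fell in the mutant, with medians of 0.05 and 0.04 where all genes had 0.03. The background was 25.1% higher and 18.2% lower calls in WT, and 22.6% and 18.7% in the mutant, so these counts are no result about the list, and the values of single genes follow as a description. The ROR activators share response elements with Nr1d1 and Nr1d2. Rora rose by 0.40 in WT and 0.35 in the mutant (adjusted p = 2.8e-06 and 1.85e-05), and Rorb by 0.29 in WT (adjusted p = 0.000131), with 0.11 in the mutant not called (adjusted p = 0.128). The interaction did not call Rorb (−0.18, adjusted p = 1). Rora is also a thalamus marker, and of 7 such markers 1 was called higher and 4 lower in WT and 1 and 3 in the mutant. The 1 called higher was Rora itself in both genotypes. Rorb is also a neocortex marker, and of 8 of these 2 were called higher and 3 lower in WT and 0 and 2 in the mutant. The 2 called higher in WT were Lamp5 and Rorb itself. Also higher were Ciart, a repressor of the Arntl and Clock dimer (0.47 in WT and 0.57 in the mutant, adjusted p = 0.000166 and 1.48e-05), and Fbxl21, an F-box protein that acts on cryptochromes (0.49 and 0.46). Among the falling genes were the deubiquitinase Usp2 (−0.36 and −0.45), the kinase Csnk1e, which phosphorylates Per proteins (−0.24 and −0.30), the kinase Gsk3b (−0.24 and −0.29), and Btrc, the F-box protein that recognises phosphorylated Per (−0.29 and −0.25, adjusted p = 2.35e-06 and 3.62e-05).

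Of 16 measured D-box factors and clock output genes, 9 rose and 0 fell in each genotype, with medians of 0.18 in WT and 0.15 in the mutant, while 25.1% (WT) and 22.6% (mutant) of all genes rose and 18.2% and 18.7% fell. Coq10b rose by 0.82 in WT and 0.65 in the mutant, Id2, an inhibitor of basic helix-loop-helix factors, by 0.58 and 0.48, and Nampt, which makes the NAD precursor, by 0.33 and 0.31. Pdk4, a kinase of pyruvate dehydrogenase, rose by 0.74 in WT and 0.65 in the mutant. Klf10 rose by 0.46 and 0.61 in the same order. The D-box factors of the list did not all rise. Tef was not called in WT (0.07, adjusted p = 0.227 in limma) and rose in the mutant (0.13, adjusted p = 0.0145). Hlf was not called in either genotype (−0.12 in each). Averaged over genotypes 11 of the 16 were called higher and 1 lower, beside 31.7% and 23.1% of all genes. The 1 called lower was Hlf (−0.12, adjusted p = 0.00871 in limma).

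Genes that answer the same kinds of signal as Per1 were read on the same arrays, where the shares of all genes called were again 25.1% higher and 18.2% lower in WT and 22.6% and 18.7% in the mutant. Of 30 activity-induced genes, 22 rose and 2 fell in WT and 23 rose and 1 fell in the mutant (medians 0.44 in each), with Fos at 1.60 and 1.73, Egr2 at 1.07 and 1.03 and Arc at 0.87 and 0.995. Of 18 measured glucocorticoid-responsive genes, 13 rose and 1 fell in each genotype (medians 0.57 and 0.51), among them Tsc22d3 at 0.92 and 0.86, Tiparp at 0.84 and 0.88 and Mt2 at 0.79 in both, while Zbtb16 fell (−0.22 and −0.35). Beside these, Per1 stood at 0.01 and 0.04. Both lists hold Dusp1, and the glucocorticoid and output lists share Klf9 and Pdk4. Between genotypes 0 members of any of these 4 lists were called at basal or after learning, where 0.100% and 0.0752% of all genes were. Averaged over states 1 was called, the activity-induced gene Jun (−0.19, adjusted p = 0.0154), beside 0.391% of all genes.

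Within groups, some clock genes varied together from array to array. After each group's mean was subtracted, 31 of 45 pairs correlated positively over the 24 arrays and 4 passed adjustment over the 45 (permutation of arrays within groups, 100000 permutations). The same counts were not made for pairs of other genes, so they are no result about the clock genes as a group. Arntl and Clock had the highest correlation, with r = 0.73 and rho = 0.71 (permutation p = 0.00021 and 0.00069, adjusted p = 0.00945 and 0.0311), and r was 0.63 without the 2 arrays farthest from the Arntl median, 0.66 over the 12 basal and 0.83 over the 12 learning arrays. The genes of this pair thus varied together within groups, while their within-array difference changed between states. Of the pair only Clock was called in both genotypes, and Arntl was not called in WT. The others were Nr1d2 with Dbp (r = 0.61, rho = 0.52), Per2 with Cry1 (r = 0.61, rho = 0.47) and Per1 with Nr1d1 (r = 0.55, rho = 0.56), at an adjusted permutation p of 0.0484 for r and 0.09 to 0.224 for rho. Without the 2 farthest arrays r was 0.45, 0.57 and 0.47 in that order. Over the 12 basal or the 12 learning arrays alone 0 of 45 pairs passed (adjusted permutation p of 0.0932 or more for these 4 pairs). The lowest values were between Per3 and Nr1d1 (r = −0.42) and between Nr1d1 and Arntl (−0.35), and neither passed (adjusted permutation p = 0.316 for each).

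**Figure D5:**
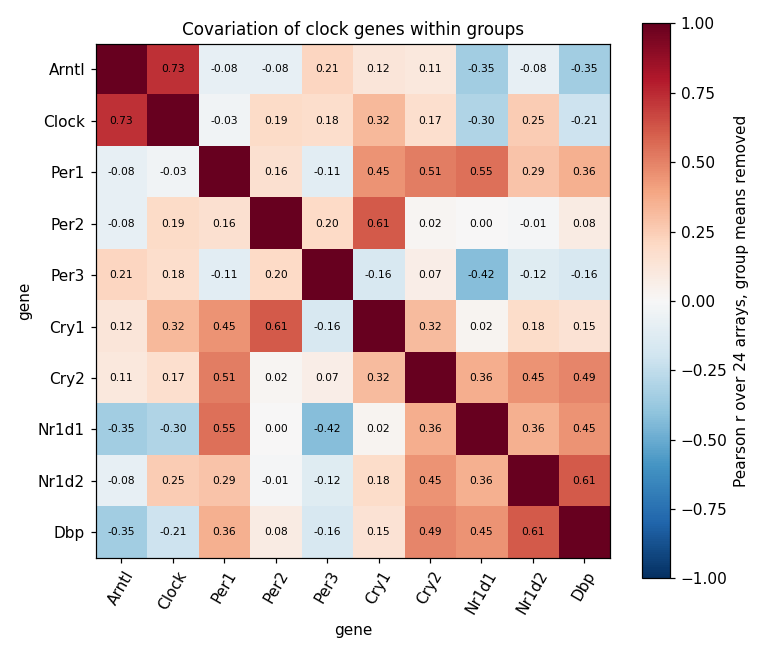
Pearson r between clock genes over the 24 arrays after subtraction of group means, from −1 (blue) to 1 (red); both axes list the genes. The strongest cell off the diagonal joins Arntl and Clock at 0.73, and the lowest joins Per3 and Nr1d1 at −0.42.

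The genes most like each clock gene within groups are given as a description over 24 arrays that share the same RNA and scaling. Clone and model names, olfactory and vomeronasal receptors, small RNA genes and pseudogenes were left out. The most alike were Ecpas and Kdm6a for Clock (r = 0.88 each), Msrb1 for Cry1 (0.84), Zc3h14 for Arntl (0.81) and Zwint for Cry2 (0.81). Tecrl was most like Nr1d1 (0.79), Thap4 most like Dbp (0.78), Zgpat most like Per3 (0.76), Adgrl4 most like Per2 (0.76), Tnfaip3 most like Per1 (0.74) and Hus1b most like Nr1d2 (0.70). No clock gene was among the 2 genes most like any other.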

How the data were processed

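Hippocampal RNA was measured on 24 Affymetrix Mouse Gene 1.0 ST arrays. The deposited log2 values were made by the authors with RMA (background correction, quantile normalization and probe summary) per the submitters' processing notes; version and chip definition: not given in the sources used here. It lists 35511 probes with values from 2.43 to 14.80 and 0 missing. By the platform annotation 21789 probes carry 1 gene symbol, 1621 several and 12101 none; the highest-mean probe per symbol gave 19938 genes. No filter on dim genes was used, and the number of arrays limits precision.

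In R 4.3.3, limma 3.58.1 fitted 1 mean per group to all 24 arrays, with eBayes and a mean-variance trend (20 residual and 29.0 total degrees of freedom). P values are two-sided, with Benjamini-Hochberg adjustment over all genes. The fit was tested on simulated data. Gene pairs were compared by exact permutation tests and correlations by permutation. Clock genes are always named; from each related list up to 4 called members per direction with the smallest p may be named. Members, lists and tests were chosen with earlier results of these data known. Alternatives covered scaling, weights, trend, model, block, filter, probes, covariate and left-out arrays. Sequences come from RefSeq (GRCm38.p6), with no coordinates taken from the array.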

Additional observations from a re-analysis of the deposited data

Results flagged for a closer look

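A single array stood apart from the other 5 of its group in 2 of the 40 combinations of clock gene and group by Dixon's 95% criterion, the gap to the nearest array over the range of the group (0.639 and 0.661 of the range). Chance flags about 1 in 20 groups of 6. Cry1 was 7.43 on WT basal array 4, with the nearest array at 7.21. Without it the WT rise of Cry1 was 0.32 instead of 0.27 (adjusted p = 0.00114 in limma). Cry2 was 9.48 on mutant basal array 4, with the nearest array at 9.64. Without it the mutant difference of Cry2 was −0.23 instead of −0.20 (adjusted p = 5.33e-05 in limma).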

How the results depend on the processing

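Nr1d1, Nr1d2, Dbp, Cry1, Cry2 and Clock kept their direction and their call in both genotypes under all 35 alternatives, with WT differences of −0.92 to −0.82 for Nr1d1, 0.21 to 0.26 for Nr1d2, 0.44 to 0.54 for Dbp, 0.20 to 0.35 for Cry1, −0.26 to −0.20 for Cry2 and 0.12 to 0.18 for Clock (adjusted p up to 0.0252). Many of these settings could not change a difference, such as the 12 arrays of the other genotype left out in turn. Those act only on the spread and the adjustment, as do no trend, only the groups compared and the replicate block. The mutant call of Arntl is the one that ended (adjusted p 0.00992 to 0.159). Its average over genotypes, not called as analysed, passed in 9 of 34 alternatives, such as a second quantile normalization (−0.12, adjusted p = 0.0104). No clock gene was called between genotypes or in the interaction under any alternative, and 112 values of 2420 for single genes changed sign without being called either way. Leaving out single arrays, the difference of Per1 against Per3 in WT ranged from −0.0442 to 0.0712 and that of Per1 against Per2 in the mutant from −0.103 to 0.0244, and neither was called. The count of correlated pairs went from 4 to 0 within the 12 basal arrays and to 0 within the 12 learning arrays, where fewer arrays enter. Replicate numbers are shared by the groups, and the labels do not say whether they pair the arrays. Of same-numbered pairs 7 of 36 correlated above 0.1 in their deviations (range −0.30 to 0.45). An array matched its own number best, among the 6 arrays of another group, in 10 of 72 comparisons. Pairing was not tested beyond these counts. With the replicate number as a block, the counts were 4 higher and 2 lower in WT and 4 and 2 in the mutant, where Arntl had an adjusted p of 0.0507. Precision is limited by 6 arrays a group, and probes report 1 summary per gene, so transcript forms were not compared.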

Other observations

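Nr1d1 lies beside Thra, the thyroid hormone receptor gene read from the other strand, whose last exons overlap it. This neighbour was looked at after the clock values were seen. Thra also fell after learning, from a range of 11.06 to 11.28 in WT basal to 10.77 to 10.95 in WT learning arrays (−0.33, SE 0.0363, adjusted p = 1.42e-08 in limma), and from 11.19 to 11.24 to a range of 10.85 to 10.97 in the mutant (−0.30, adjusted p = 5.94e-08). The fall of Nr1d1, at −0.88 and −0.79, was larger. Where the probes of either gene lie was not analysed here, and how far one reading enters the other was not tested.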
